A study of Homo sapiens with 4 samples.

Results

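The 92 protein-coding genes of the nucleus whose products build complexes I to V of the mitochondrial respiratory chain were followed in A549 cells with and without a CRISPR guide against UHRF1. They were taken by symbol from the GENCODE 29 annotation of the count table (NDUFA, NDUFB, NDUFC, NDUFS and NDUFV genes, SDHA to SDHD, UQCR genes and CYC1, COX4 to COX8, ATP5 genes), 92 of 58735 genes listed, with assembly factors left out. Complex I had 40 of them, complex II 4, complex III 10, complex IV 17 and complex V 21. After the filter on low counts, 86 of the 92 were tested, among 17030 genes in all.

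A549 is an established human lung adenocarcinoma line. The control group held 2 libraries of A549 cells given a non-targeting guide, and the UHRF1 KO group held 2 libraries given a guide against UHRF1, the protein that reads hemimethylated DNA and brings the maintenance methyltransferase DNMT1 to it. In both groups the guide was carried by the hygromycin-selectable lentiviral vector lentiCRISPRv2-hygro, and infected cells were selected with that drug. The sources used here do not give the time after infection, whether the cells were pools or clones, or whether replicate libraries stem from separate cultures. The p-values therefore rest on a spread between libraries that may be technical only.

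The respiratory chain sits in the inner mitochondrial membrane. Complexes I and II pass electrons from NADH and succinate to coenzyme Q, complex III passes them on to cytochrome c, complex IV gives them to oxygen, and complexes I, III and IV pump protons that drive the ATP synthase, complex V. All of these except complex II combine subunits encoded in the nucleus with others encoded in mitochondrial DNA. Several subunits of complex IV have a widely expressed isoform and a second one restricted to a tissue such as muscle, lung or testis. Many of the nuclear genes carry promoter sites for the transcription factors NRF1 and GABP.

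Total counts ran from 18604598 to 23977168 per library. UHRF1 itself went from 1740 and 1834 counts under the non-targeting guide to 811 and 1000 under its own guide. Its level fell by 1.31 (SE 0.05) on the log2 scale and did not reach 0, with 40.4% of the control level left. Of the 8 A549 and epithelial markers, 7 were lower in UHRF1 KO and 1, EPCAM, was higher (log2 fold change 2.16), with a list median of -0.43. Over all genes tested, 30.1% were called lower and 32% higher. Among protein-coding genes of at least 20 CPM (counts scaled to library size with TMM factors), 47.6% were called lower. The summed level of the 8 markers ran from 16230 to 16572 CPM in control and from 7080 to 7130 in UHRF1 KO. Most of that gap came from ALDH1A1 (8215 to 2483 CPM) and AKR1B10 (3204 to 792 CPM). Of 13 markers of other cell types, 5 passed the filter. PECAM1, PDGFRB and ALB had 7 counts or fewer in each control library. They were tested through the group where they are high, and no count of calls is read from them. COL1A1 (57 and 81 counts in control, 307 and 409 in UHRF1 KO, log2 fold change 2.05) was called higher with counts in both groups. So was GFAP (26 and 25 against 68 and 105 counts, log2 fold change 1.42). The sum of the 13 ran from 5.61 to 6.63 CPM in control and from 51.5 to 55.5 CPM in UHRF1 KO, 29.9 CPM of it from the endothelial gene PECAM1. CD3E was at 0 in every library. The blood genes HBB (1 and 2 counts in control) and LYZ (0 and 1) were at 0 in both UHRF1 KO libraries. PTPRC, CDH5 and MYH6 were at 0 in both controls, with 10 and 20, 3 and 0, and 0 and 1 counts in UHRF1 KO. VWF had 1 and 0 counts in control and 11 and 11 in UHRF1 KO. The part of these markers in the results below was not tested. In bulk RNA, fewer cells of a type and less RNA per cell cannot be told apart.

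The promoters of 6 members are shown, since they stand for opposite responses. COX6B2, COX7B2 and COX8C are restricted isoforms of complex IV subunits whose counts were at or near 0 in the controls, and CpG dinucleotides, the sites of DNA methylation, are in capitals in their promoters. ATP5ME, NDUFS6 and NDUFB4 had the largest falls among 7 members called lower. These 7 have an NRF1 core motif (GCATGCGC on either strand) before both annotated starts, in RefSeq and in GENCODE 29, and the core motif is in capitals. NDUFA6 and ATP5PF, which fell more than NDUFS6, have the motif near a RefSeq start but not before both starts, so they are not among the 7. Each stretch is 150 bases that lie before the annotated starts in RefSeq and GENCODE 29, 5′ to 3′ on the strand of the gene, from RefSeq on GRCh38.p14.
COX6B2, chr19:55354815-55354964, minus strand: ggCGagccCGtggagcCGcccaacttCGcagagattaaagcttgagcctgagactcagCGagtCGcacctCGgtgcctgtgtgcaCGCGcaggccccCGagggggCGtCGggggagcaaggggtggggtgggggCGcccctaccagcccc
COX7B2, chr4:46909246-46909395, minus strand: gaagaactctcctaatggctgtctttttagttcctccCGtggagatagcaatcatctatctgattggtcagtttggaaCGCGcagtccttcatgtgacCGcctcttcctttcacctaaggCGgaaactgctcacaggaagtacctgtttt
COX8C, chr14:93347032-93347181, plus strand: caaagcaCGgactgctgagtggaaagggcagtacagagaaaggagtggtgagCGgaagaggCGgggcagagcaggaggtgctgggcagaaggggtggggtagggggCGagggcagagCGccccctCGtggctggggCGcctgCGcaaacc
ATP5ME, chr4:674339-674488, minus strand: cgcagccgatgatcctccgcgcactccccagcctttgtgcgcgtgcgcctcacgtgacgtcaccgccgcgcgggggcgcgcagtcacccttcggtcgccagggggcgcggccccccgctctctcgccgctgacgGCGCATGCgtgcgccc
NDUFS6, chr5:1801250-1801399, plus strand: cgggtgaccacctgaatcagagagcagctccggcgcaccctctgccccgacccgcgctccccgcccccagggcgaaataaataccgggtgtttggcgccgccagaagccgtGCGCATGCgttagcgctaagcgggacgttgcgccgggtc
NDUFB4, chr3:120596159-120596308, plus strand: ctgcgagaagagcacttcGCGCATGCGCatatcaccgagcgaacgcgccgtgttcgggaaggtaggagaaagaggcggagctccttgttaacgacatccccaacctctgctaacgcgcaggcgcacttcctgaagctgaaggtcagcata
The stretches of COX6B2, COX7B2 and COX8C hold 13, 5 and 8 CpG. In NDUFB4 the capitals are 2 core motifs, 1 on each strand, that share bases. Methylation itself was not measured in these libraries.

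Of the 86 members tested, 70 fell, 4 rose and 12 did not pass the threshold (edgeR quasi-likelihood test, Benjamini-Hochberg adjusted p under 0.05). The members called lower were 81.4% of those tested, where 30.1% of all genes tested were called lower. The members called higher were 4.65%, where the background was 32%, and 2 of the 4, COX6B2 and COX7B2, passed the filter only through the UHRF1 KO libraries. The median log2 fold change was -0.44 over the members and 0.02 over all genes tested. The falls were moderate in the main fit: 0 of 86 members fell 2-fold or more, a change that 2.54% of all genes made. At that share few would be expected among 86, so the 0 is not read as a trait of the members. It also depends on the setting: the lowest values over the alternatives were -1.34 for ATP5ME, -1.28 for CYC1, -1.13 for UQCRFS1 and -1.03 for NDUFS3. In the main fit 2 members rose 2-fold or more, against 15.4% of all genes.

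Both UHRF1 KO libraries lay below both controls for 73 members, above both for 8, and overlapped them for 5. Of those above, COX6B2, COX7B2, COX7A1 and NDUFA7 passed the filter only through the UHRF1 KO libraries. Over all genes tested, 38.4% lay below and 41.6% above. Calls differed with the level of the gene. Among the 66 members with a mean of at least 20 CPM, 64 were lower and 0 were higher (median log2 fold change -0.48). Of the 7710 protein-coding genes at that level, 47.6% were called lower and 26% higher, with a median of -0.11. The 2 abundant members that missed the threshold were NDUFAB1 and ATP5F1D. Among the 20 tested members with a mean under 20 CPM, 6 were lower, 4 were higher, and the median was 0.00, while 17.9% of the 6005 protein-coding genes under that level were lower and 39.6% higher, with a median of 0.23.

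**Figure D1:**
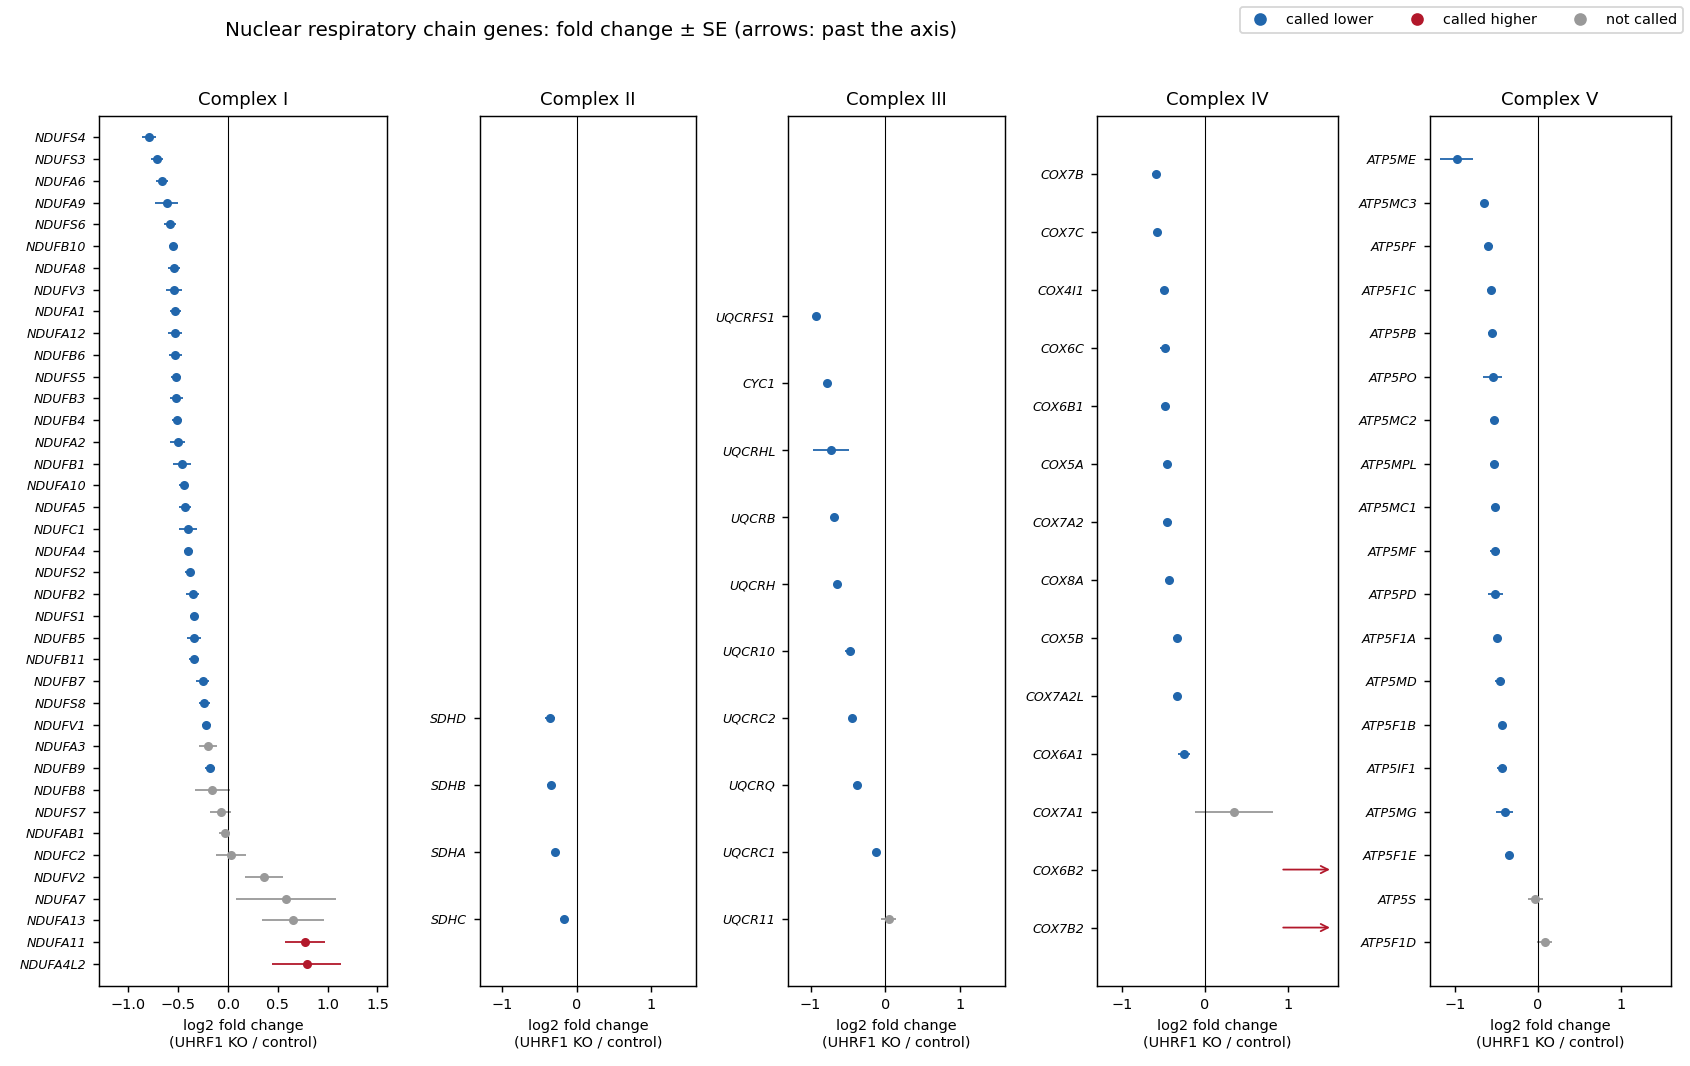
Log2 fold change (UHRF1 KO over control) with its standard error for each of the 86 members tested, one panel per complex, blue for called lower, red for called higher and grey for not called. The 70 points called lower lie between -0.97 and -0.12, and the 2 arrows mark COX6B2 and COX7B2, whose values lie past the axis.

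Summed over the members of a complex, the loss was smallest in complex II and largest in complex III. The 4 SDH genes summed to 455 and 434 CPM in the controls and to 365 and 374 CPM in UHRF1 KO, 83.1% of the control mean. The 10 genes of complex III summed to 1400 and 1390 CPM against 937 and 926 CPM, 66.8% of control. Complexes I, IV and V lay between these, at 75.6%, 72.9% and 71.7%. All 92 members together summed to 8731 and 8421 CPM in control and to 6234 and 6239 CPM in UHRF1 KO, or 72.7% of control. In each complex both UHRF1 KO sums were below both control sums. The differences between complexes were not tested.

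**Figure D2:**
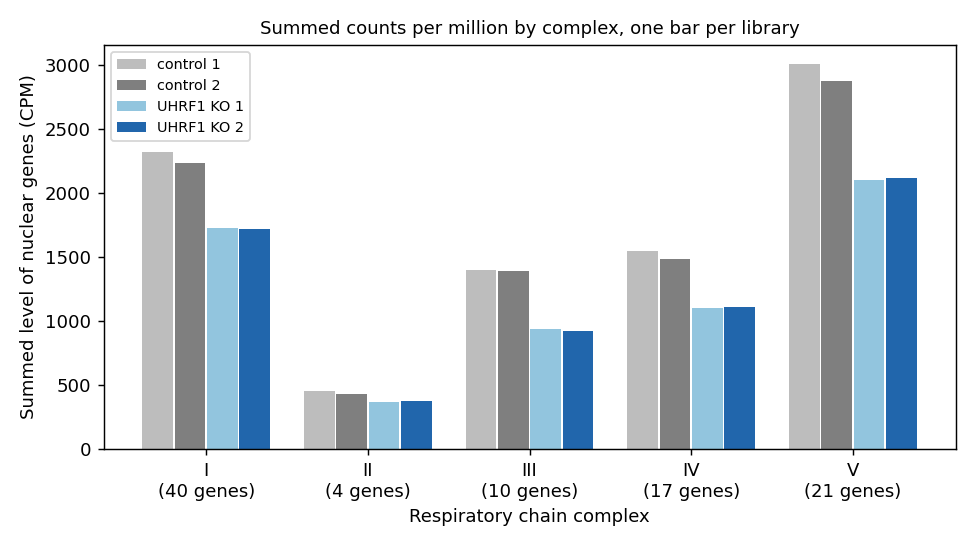
Summed CPM of the nuclear members of each complex, one bar per library (grey for control, blue for UHRF1 KO), on an axis that starts at 0. In all 5 complexes both UHRF1 KO bars are shorter than both control bars, with 66.8% of the control sum left in complex III and 83.1% in complex II.

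In complex I, the NADH dehydrogenase, 29 of 39 tested genes fell and 2 rose, with a median of -0.40. NDUFS4, an accessory subunit needed for a stable complex, had 782 and 758 counts in control and 514 and 599 in UHRF1 KO. After scaling this was 42.4 ± 2.12 against 24.4 ± 0.487 CPM (SD, n = 2), a log2 change of -0.79 (SE 0.07) on the log2 scale with an edgeR adjusted p of 4.12e-11, and the groups did not overlap. NDUFS3, a core subunit of the arm that faces the matrix, fell by 0.72 (68.7 ± 1.69 to 41.9 ± 2.28 CPM), and 22.4% of its exon length is shared with other genes. The accessory subunit NDUFA6 fell by 0.67 (58.1 ± 0.936 to 36.6 ± 0.125 CPM).

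The 7 core subunits, which hold the flavin and the iron-sulfur clusters or bind them, had a median of -0.24, and 5 were lower. NDUFS1, the most abundant member of complex I by CPM, had 196 and 203 CPM in control against 156 and 158 CPM in UHRF1 KO, a log2 change of -0.35 (SE 0.04). NDUFV1, the subunit that binds NADH, had a log2 change of -0.22 and NDUFS8 of -0.24. NDUFS7 (-0.07, edgeR adjusted p = 0.553) and NDUFV2 (0.36, edgeR adjusted p = 0.0982) missed the threshold. The 31 accessory subunits had a median of -0.45, with 24 lower and 1 higher. Among them NDUFAB1, the acyl carrier protein of mitochondria, was close to its control level at 66.2 ± 0.495 CPM in control against 64.7 ± 1.23 CPM in UHRF1 KO, a log2 change of -0.03 (SE 0.05).

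The higher accessory subunit was NDUFA11, a membrane subunit where complex I meets complex III. It had 46 and 64 counts in control and 107 and 128 in UHRF1 KO, a log2 change of 0.77 (SE 0.20, edgeR adjusted p = 0.00121). These counts are low beside most other accessory subunits, and the call was lost with DESeq2 (adjusted p = 0.0746). NDUFA13 (24 and 22 to 39 and 52 counts) and NDUFA7 (7 and 9 to 15 and 15) also had both UHRF1 KO libraries above both controls and did not pass the test. Several members with few counts share exon with a neighbouring gene, and so do some with many. NDUFB11 shares 44.9% of its exon length (1549 and 1484 counts in control) and NDUFA1 44.5% (1378 and 1361 counts). Among members with few counts, the share was 12.1% of the exon length in NDUFA11, 21.0% in NDUFA13, 33.5% in NDUFA7, 28.4% in NDUFV2 and 48.5% in NDUFB8. The sources used here do not give how reads in shared exons were counted. Over the 68 tested members with under 20% of their exon length shared, 59 were lower and 3 higher (median -0.46), and over the 18 with more, 11 were lower and 1 higher (median -0.35).

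Complex II, succinate dehydrogenase, is the part of the chain that also serves the citric acid cycle and has no subunit encoded in mitochondrial DNA. All 4 of its genes fell, with a median of -0.32. All but SDHC stayed called in each alternative. SDHA, the flavoprotein, had 171 and 165 CPM in control against 132 and 143 CPM in UHRF1 KO, a log2 change of -0.29 (SE 0.04, edgeR adjusted p = 1.06e-06). The iron-sulfur subunit SDHB fell by 0.35 and the membrane anchor SDHD fell by 0.36. The other anchor, SDHC, had the smallest change of the 4, a log2 change of -0.17 (149 ± 3.51 to 132 ± 1.27 CPM), and was no longer called once trends in GC content and length were removed (-0.06, adjusted p = 0.161). In each of the 4 genes both UHRF1 KO libraries lay below both controls.

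In complex III, 9 of 10 genes fell, with a median of -0.56, and the largest falls were in the 2 nuclear subunits that carry electrons. UQCRFS1 (ENSG00000169021, chr19:29205321-29213541), the Rieske iron-sulfur protein, had 5588 and 5767 counts in control and 3443 and 4010 in UHRF1 KO. That was 312 ± 1.79 against 164 ± 3.33 CPM, a log2 change of -0.93 (SE 0.04) with an edgeR adjusted p of 2.37e-20, the smallest among the members. CYC1 (chr8:144095027-144097525), cytochrome c1, had 4020 and 4270 counts against 2787 and 3233, and fell by 0.79 (SE 0.04, 228 ± 3.34 to 132 ± 3.07 CPM). The replicates of each gene lay close together, far inside the gap between the groups.

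The other genes of complex III moved less evenly. UQCRB, a small subunit at the site where coenzyme Q is bound, fell by 0.69 (164 ± 1.15 to 102 ± 2.04 CPM), and UQCRH, which docks cytochrome c, fell by 0.64 (122 ± 2.64 to 78.1 ± 4.06 CPM). The 2 core proteins, which face the matrix, differed: UQCRC2 fell by 0.44 (237 ± 3.17 to 174 ± 2.12 CPM) and UQCRC1 fell by 0.12 (168 ± 7.62 to 154 ± 0.194 CPM). The UQCRC1 call (edgeR adjusted p = 0.0157) was lost with upper-quartile factors (0.0520), without control 1 (0.0570) and without either UHRF1 KO library (0.0859 and 0.105). With these and the losses of UQCRHL, the number of complex III genes called lower ran from 7 to 10 over the alternatives. The small subunit UQCR11 was the member of complex III that missed the threshold, at 14.3 ± 0.828 and 14.7 ± 0.108 CPM.

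In complex IV, cytochrome c oxidase, all 11 widely expressed subunits fell, with a median of -0.46 and a narrow range from -0.58 to -0.26. COX7B had 138 and 127 CPM in control against 88.5 and 88.1 CPM in UHRF1 KO, a log2 change of -0.58 (SE 0.05, edgeR adjusted p = 2.45e-12). COX7C fell by 0.57 (150 ± 1.57 to 101 ± 2.97 CPM). COX4I1, the largest nuclear subunit and the most abundant of complex IV by CPM, fell by 0.50 (295 ± 9.20 to 209 ± 2.79 CPM). In each of these genes both UHRF1 KO libraries lay below both controls. COX7A2L, counted here by its symbol and known as a factor that joins complexes III and IV, fell by 0.34.

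Some tissue-restricted isoforms rose where their widely expressed partners fell. In all 8 pairs of the chain the usual isoform was lower, with a median of -0.47, while of the 8 restricted isoforms or copies 5 passed the filter. COX7B2, COX6B2 and COX7A1 passed it only through the UHRF1 KO group, where they are higher. The calls of restricted isoforms are therefore given gene by gene and not as a count. COX7B2 (chr4:46734827-46909235), a testis isoform of COX7B, had 0 and 0 counts in control and 43 and 42 in UHRF1 KO. Against a floor of 3 counts over both control libraries this was at least 22.6-fold higher (edgeR adjusted p = 6.06e-09). COX6B2 (chr19:55349306-55354814), the testis isoform of COX6B1, had 4 and 3 counts in control and 48 and 49 in UHRF1 KO, a log2 change of 3.43 (SE 0.47, edgeR adjusted p = 1.43e-07), and 30.9% of its exon length is shared with another gene. COX8C, also known from testis, had 0 and 0 counts against 18 and 9, at least 7.18-fold higher against the same floor, and did not pass the filter, so it has no test. In these 3 genes every UHRF1 KO library was above both controls.

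These isoforms stayed minor. Per kilobase of exon, COX7B2 made up 8.07% and 6.71% of the COX7B and COX7B2 pair in the UHRF1 KO libraries and 0% in the controls. COX6B2 made up 0.349% and 0.285% of its pair, up from 0.0232% and 0.0175%. COX8C made up 1.17% and 0.517% of its pair, from 0%. These shares use merged exon lengths, which differ: 807 bases for COX7B2 against 3024 for COX7B, and 3815 for COX6B2 against 936 for COX6B1. By counts alone, the shares in UHRF1 KO were 2.29% and 1.88% for COX7B2, 1.41% and 1.15% for COX6B2, and 1.23% and 0.544% for COX8C. For the 2 genes at 0, a count of 0 allows up to 3 counts in a library, or 0.168 and 0.162 CPM in the 2 controls, for counting error only.

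NDUFA4L2, a hypoxia-inducible paralogue of NDUFA4, had 17 and 19 counts in control and 38 and 40 in UHRF1 KO, a log2 change of 0.79 (SE 0.35) with an edgeR adjusted p of 0.0472. That call was lost in 10 of 14 alternative settings, over which the adjusted p ran from 0.0314 to 0.502. NDUFA4 itself, grouped here by symbol with complex I and known as a subunit of complex IV, fell by 0.40 (144 ± 4.77 to 109 ± 0.354 CPM). The muscle isoform COX7A1 had 11 and 9 counts against 14 and 18 and was not called, while its partner COX7A2 fell by 0.45. COX4I2 and COX6A2, the restricted partners of COX4I1 and COX6A1, had 1 count each over all 4 libraries, and their partners had log2 changes of -0.50 and -0.26. The COX6A1 call was lost without control 1 (log2 fold change -0.16, edgeR adjusted p = 0.0738) and without UHRF1 KO 2 (-0.19, edgeR adjusted p = 0.0678). UQCRHL, a near-identical intronless copy of UQCRH, had 69 and 55 counts against 42 and 52 and fell by 0.73 (SE 0.24, edgeR adjusted p = 0.0106), a call that was lost without control 1 (-0.54, edgeR adjusted p = 0.123) and with DESeq2 (adjusted p = 0.150). Since the handling of reads that match both copies is not given, its counts may hold reads of UQCRH.

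**Figure D3:**
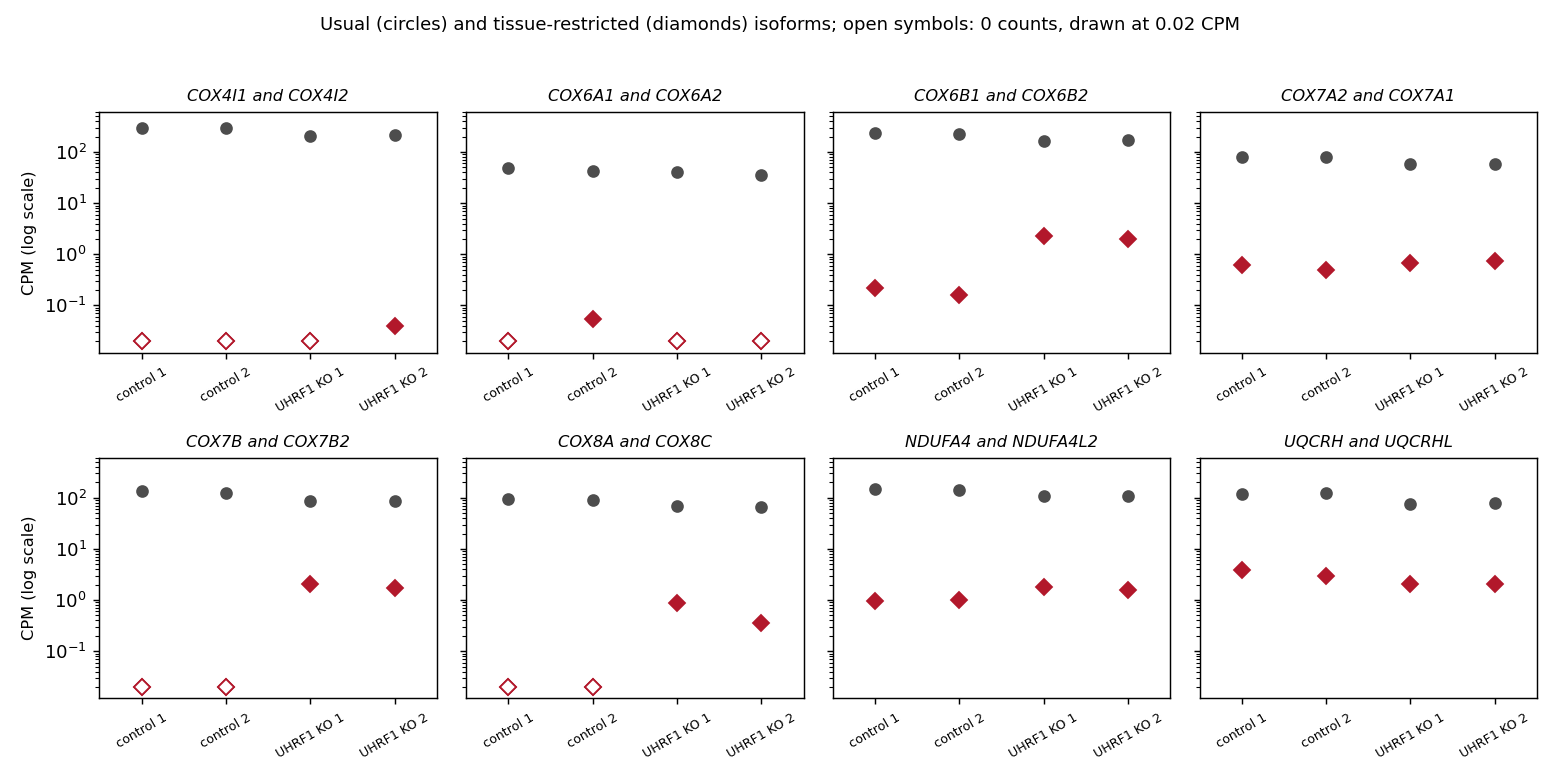
CPM on a log scale of each widely expressed subunit (circles) and its restricted isoform or copy (diamonds) in the 4 libraries, with open symbols for 0 counts, drawn at the foot of the axis. Circles are lower in both UHRF1 KO libraries in all 8 pairs, while the diamonds of COX6B2, COX7B2, COX8C and NDUFA4L2 are higher there.

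In complex V, the ATP synthase, 17 of 19 tested genes fell and 0 rose, with a median of -0.51. ATP5F1B, the catalytic beta subunit and the most abundant member of the chain by CPM, had 1080 and 1044 CPM in control against 787 and 784 CPM in UHRF1 KO, a log2 change of -0.43 (SE 0.03, edgeR adjusted p = 1.20e-13). Per kilobase of exon it was also the highest of all members, at 457 CPM per kilobase in control and 338 in UHRF1 KO, ahead of COX6B1 at 248 and 177. The alpha subunit ATP5F1A fell by 0.48 and the gamma subunit ATP5F1C fell by 0.57. The delta subunit of the central stalk, ATP5F1D, missed the threshold at 22.2 ± 2.80 and 23.5 ± 0.528 CPM (log2 fold change 0.09), with groups that overlapped.

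The 3 genes ATP5MC1, ATP5MC2 and ATP5MC3 encode the same mature c subunit, the rotor ring of the enzyme, and all 3 fell, with log2 changes of -0.51, -0.53 and -0.65. ATP5MC3 had 222 and 212 CPM in control against 137 and 140 CPM in UHRF1 KO (SE 0.04, edgeR adjusted p = 3.71e-15). The 4 genes of the peripheral stalk, which holds the head still, all fell, with a median of -0.55, among them ATP5PF (70.9 ± 1.44 to 46.9 ± 0.923 CPM, a log2 change of -0.59). The inhibitor ATP5IF1, which stops the enzyme from running backwards, fell by 0.43.

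The largest fitted fall among all members was in ATP5ME, subunit e of the membrane part (chr4:672436-674338), which had 99 and 98 counts in control and 50 and 76 in UHRF1 KO. This was 5.42 ± 0.191 against 2.73 ± 0.457 CPM, a log2 change of -0.97 (SE 0.20, edgeR adjusted p = 8.27e-05). Its counts were below those of ATP5MD, ATP5MF, ATP5MG and ATP5MPL, other membrane subunits, and 61.6% of its exon length overlaps MYL5 on the other strand. Without strand information, reads of the 2 genes cannot be told apart. ATP5S, a coupling factor that is not a built-in subunit, had 19.4 ± 0.737 and 19.1 ± 2.04 CPM and was not called.

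The 6 members without a test were COX4I2, COX6A2 and COX8C, the readthrough genes NDUFC2-KCTD14 and ATP5MF-PTCD1, and ATP5MGL. NDUFC2-KCTD14 and ATP5MGL had 0 counts in every library, and ATP5MF-PTCD1 had 3 counts at most. The 12 members that were tested and not called were NDUFA3, NDUFA7, NDUFA13, NDUFAB1, NDUFB8, NDUFC2, NDUFS7 and NDUFV2 of complex I, UQCR11, COX7A1, ATP5F1D and ATP5S. NDUFA3 was nearest to the threshold, with both UHRF1 KO libraries below the controls (21.0 ± 0.462 to 18.2 ± 1.05 CPM, edgeR adjusted p = 0.0595).

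By their medians the members were shorter and more abundant than the genes tested as a whole. Their median exon length was 2469 bases against 4419 over all genes tested, their median GC content 48.2% against 49.3%, and their median level 63.5 CPM against 16.2 CPM. Among the 81 tested members that are neither restricted isoforms nor readthrough genes, the log2 fold change had a Spearman correlation of -0.27 with the mean CPM, 0.20 with exon length and 0.30 with GC content, given as a description since these genes share the same libraries. With GC content and length trends removed, 71 members were lower and 4 higher, where 29% and 32.4% of all genes were.

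Promoter windows of 250 bases before to 50 bases after the RefSeq start were found for 72 of the 92 members, 86 windows in all. The NRF1 core motif GCATGCGC, on either strand, was in 15 of the 86 (17.4%), and in 3.05% of all 35116 promoter windows. The ETS site CCGGAAGT, which GABP can bind, was in 12 of the 86 member windows and in 4.14% of all. The letters AAGATGGC, part of a YY1 site, were in 15.1% and 2.89%. At least 1 of the 3 was in 38.4% of member windows, 9.36% of all windows and 11.6% of those of protein-coding genes.

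Shares with a motif differed between the complexes, with no test of the differences. The NRF1 core motif was in 14 of the 69 windows of members called lower and in 1 of 17 other member windows. Those 17 hold the 6 windows of restricted isoforms and that of the readthrough gene NDUFC2-KCTD14, and some of these genes had no test. The 2 sets therefore differ in the kind of gene as well as in the call. Windows are not genes: ATP5MC2, called lower, has the motif in 2 of its windows. The NRF1 core motif was in 0 of 7 windows of complex III, the complex with the lowest share of its control sum left. CYC1, UQCRB and UQCRHL of that complex had no window, so the motif could not be sought in them. At least 1 of the 3 motifs was in 13 of 42 windows of complex I, 2 of 3 of complex II, 4 of 7 of complex III, 3 of 16 of complex IV and 11 of 18 of complex V. The 6 windows of restricted isoforms held 0 of the 3. The median number of CpG in a window was 21.5 for the members and 21 for protein-coding genes, and the restricted isoforms had a median of 13. These are letter matches in a window and do not show that a factor was bound.

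In each of 6 lists of other genes that serve the chain, the share called lower was above the 30.1% of all genes tested and the 47.6% of protein-coding genes of at least 20 CPM, with no test of the lists. The shares were 89.7% for import, carriers and porins, 75% for regulators, 71.4% for the citric acid cycle, 69.2% for mitochondrially encoded subunits, 68.1% for assembly factors and 60% for coenzyme Q and cytochrome c. Of the regulators of respiratory genes and of mitochondrial DNA expression, 15 of 20 fell and 0 rose (median -0.34). PPARGC1A, the coactivator that drives mitochondrial biogenesis, had 13.6 and 15.1 CPM in control against 3.76 and 3.02 CPM in UHRF1 KO, a log2 change of -2.09 (SE 0.15, edgeR adjusted p = 5.22e-14). LRPPRC, which stabilises mitochondrial messenger RNA, fell by 0.50 (edgeR adjusted p = 4.71e-14). NRF1 itself was at 18.2 and 20.9 CPM against 13.6 and 11.3 CPM, a log2 change of -0.65, and TFAM, which packs and transcribes mitochondrial DNA, fell by 0.35; these 2 genes were chosen after their values were seen.

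Of the assembly factors, which help to build the complexes, 32 of 47 fell and 0 rose (median -0.29). TACO1, the translational activator of cytochrome c oxidase subunit 1, went from 75.4 and 68.9 CPM to 41.7 and 43.2 CPM, a log2 change of -0.76, and COX11, a copper chaperone of complex IV, fell by 0.46. Of the import machinery, carriers and porins, 26 of 29 tested genes fell and 1, PAM16, rose (median -0.40). The outer membrane channel VDAC3 fell by 0.77 and prohibitin, PHB, fell by 0.71. PAM16 was named for being the exception, and had 2.08 and 2.26 CPM against 5.55 and 4.59 CPM.

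Of the 15 genes of coenzyme Q synthesis and cytochrome c, 9 fell and 1, COQ10B, rose (median -0.19). That median moved to -0.29 without control 1 and to -0.34 without UHRF1 KO 1. CYCS, cytochrome c itself, had 404 and 410 CPM in control against 261 and 264 CPM in UHRF1 KO, a log2 change of -0.63 (edgeR adjusted p = 1.02e-16), and COQ5, a methyltransferase of coenzyme Q synthesis, fell by 0.84. Of the 14 genes of the citric acid cycle, 10 fell and 1 rose (median -0.28). IDH3A, a subunit of isocitrate dehydrogenase, fell by 0.66, while OGDH, the first enzyme of the oxoglutarate dehydrogenase complex, rose from 170 and 160 CPM to 238 and 240 CPM, a log2 change of 0.54.

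The 13 subunits encoded in mitochondrial DNA had 9 lower, 2 higher and a median of -0.13. The median was -0.22 without UHRF1 KO 1 and -0.06 after removal of the GC content and length trends. The calls ran from 6 to 12 lower and from 0 to 3 higher over the alternatives, with 1 higher without control 2 or without either UHRF1 KO library. Their summed level was 64539 and 61728 CPM in control against 56775 and 56179 CPM in UHRF1 KO, so both UHRF1 KO libraries lay below both controls. MT-ND6 had 681 and 695 CPM in control against 204 and 220 CPM in UHRF1 KO, a log2 change of -1.70 (SE 0.04, edgeR adjusted p = 4.20e-28). MT-ND5 had 3227 and 3237 CPM against 1171 and 1229 CPM, a log2 change of -1.43. MT-ND6 lies on the strand opposite to most mitochondrial genes, and whether strand was used in counting is not given. These 2 were the members of that list called lower by 2-fold or more.

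**Figure D4:**
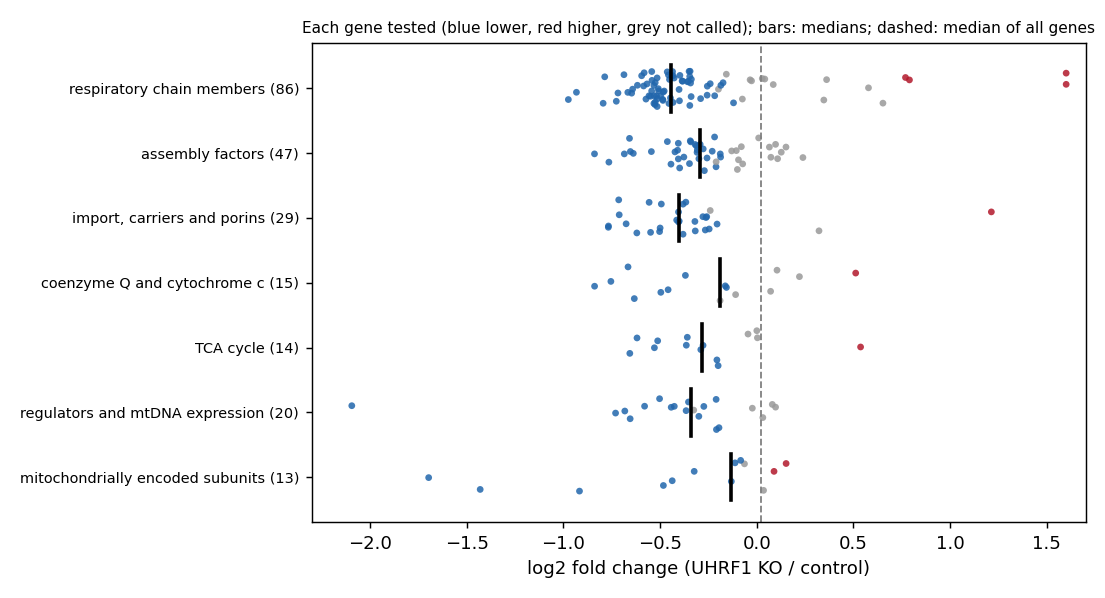
Log2 fold change of each tested gene among the respiratory chain members and the 6 lists of genes that serve the chain, coloured by call, with a bar at the median of each list and a dashed line at the median of all genes tested (0.02). All 7 medians lie below the dashed line, from -0.44 for the members to -0.13 for the mitochondrially encoded subunits, and 2 members (COX6B2 and COX7B2) lie past the axis and are drawn at its right edge.

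The scale of these values rests on how the libraries are centred. When the libraries were recentred after removal of the trends in GC content and length, the median of all genes tested moved to -0.26, with 50.2% of genes called lower and 20% higher in place of 30.1% and 32%. The median of the members was then -0.69, with 77 lower and 2 higher, and NDUFA11 was no longer called (log2 fold change 0.25, adjusted p = 0.278). The median of the members lay below the median of all genes under both, while single members such as NDUFA11 lay above it.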

How the data were processed

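RNA-seq of 4 libraries was used, 2 control and 2 UHRF1 KO. Trizol RNA and a SMARTER mRNA-Seq kit were used, per the labels' protocols. The values deposited by the authors are raw read counts, whole numbers with no normalization, for 58735 genes. FastQC 0.10.1 and GRCh38 stand in the submitters' processing notes; aligner, counter, strand setting, annotation and treatment of multi-mapping reads: not given in the sources used here. All 58735 identifiers were found in GENCODE 29, which gave symbols, types, coordinates and exon lengths. Columns were assigned by name; for the controls the number in the title was used, because their descriptions share 1 short name, so their numbering is less certain than their group.

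Computations on these counts used edgeR 4.0.16 and limma 3.58.1 in R 4.3.3. The group-wise filterByExpr left 17030 genes, which were TMM scaled and tested by a robust quasi-likelihood fit (glmQLFit, glmQLFTest, two-sided). P-values were adjusted over all of them by Benjamini-Hochberg, with a threshold of 0.05. The biological coefficient of variation was 3.16%. Each SE is approximate: the size of the log2 change divided by the root of its F statistic. Levels per length are CPM per kilobase of merged exons. A gene at 0 in both controls was compared with a floor of 3 counts over both libraries, which covers counting error only. The main fit alone was run on simulated counts in which few genes changed, as many up as down. That simulation does not test the centring of these libraries, where many genes were called.

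The members and lists were chosen with earlier results of these data known. Genes named were UHRF1; in each complex the 3 largest falls and rises among called members whose groups do not overlap and whose higher group reaches 5 CPM, and the member of highest mean CPM; all isoform pairs; and the 2 called genes of smallest adjusted p in each list. Others were chosen after their values were seen. The gene SCO2, with 2 identifiers under 1 symbol, was left out of the assembly factors. Of the listed markers of other cell types, 1 is not reported here. Promoters came from RefSeq on GRCh38.p14. Alternatives were upper-quartile and DESeq2 size factors, no filter or a minimum of 1 CPM in 2 libraries, each library left out, a replicate block, limma-voom, DESeq2 1.42.0, an adjusted p under 0.01, GC content and length trends taken out (also with recentred libraries), and the NDUFA4 pair moved to complex IV.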

Additional observations from a re-analysis of the deposited data

How the results depend on the processing

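Over the alternative settings the members called lower stayed between 67 and 77 and the members called higher between 2 and 5, with recentred libraries giving the 2, while 15.8% to 50.2% of all genes tested were called lower and 17% to 33.5% higher. Leaving out each library in turn gave 67 to 70 lower and 3 to 5 higher. The number of complex I genes called higher, 2 in the report, was 1 with no filter on low counts, with the replicate block, with an adjusted p under 0.01 and with NDUFA4 and NDUFA4L2 counted in complex IV, 0 with DESeq2 and 0 with trends removed and libraries recentred, and ran from 1 to 2 when each library was left out. COX7A1, not called in any setting, reversed from 0.35 to -0.15 with recentred libraries. Of the genes named by rule and settings compared, 17 lost their call (COX6A1, NDUFA4L2, NDUFA11 and UQCRHL) and 555 kept their direction and their side of the threshold. With members that share 20% or more of their exon length left out, an alternative chosen after seeing the data, 59 of 68 were lower. Deviations from the group means of same-numbered libraries had a correlation of -0.01 over all genes tested. With 2 libraries per group and uncertain control numbering, this check cannot exclude a pairing of the libraries. The replicate block gave 70 members lower and 3 higher. Over the alternatives the list medians ran from -0.36 to -0.06 for mitochondrially encoded subunits, -0.60 to -0.17 for coenzyme Q and cytochrome c, -0.50 to -0.20 for assembly factors, -0.53 to -0.23 for the citric acid cycle, -0.57 to -0.28 for regulators and -0.73 to -0.38 for import, carriers and porins. Among the members, SDHC, NDUFB9 and UQCRC1 also lost their calls in 1, 1 and 4 settings at the 0.05 threshold.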

Other observations

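GENCODE 29 lists 164 pseudogenes named after member genes, of which 10 passed the filter on low counts, with 3 called lower, 2 higher and 5 not called (median log2 fold change -0.31). These shares, 30% and 20%, are at and below those over all genes tested, 30.1% and 32%, so the genes below are given as single values and not as a pattern of the pseudogenes. UQCRFS1P1, an intronless copy of UQCRFS1 on chr22:39875289-39876108, had 106 and 112 counts in control and 39 and 18 in UHRF1 KO, a log2 change of -2.24 (SE 0.27, edgeR adjusted p = 1.14e-08). NDUFA5P11 (20 and 27 to 10 and 16 counts) fell by 1.17 and NDUFV2P1 (33 and 28 to 22 and 21 counts) fell by 0.82, both with both UHRF1 KO libraries below both controls. The called rises were ATP5PDP4, with 5 and 0 counts in control and 18 and 18 in UHRF1 KO, and SDHAP3, a partial duplicate of SDHA, with 62 and 69 counts against 112 and 152, a log2 change of 0.68 (SE 0.18, edgeR adjusted p = 0.00173), where SDHA itself fell by 0.29. ATP5PDP4 passed the filter only through the UHRF1 KO libraries and NDUFA5P11 only through the controls, so neither call is read as support. Reads of a processed copy and of its parent gene are near-identical and the sources used here do not give how they were assigned, so these values are uncertain.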
